A study of Mus musculus with 2 samples.

Results

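Chemokines are small secreted proteins that guide the movement of white blood cells, and they are named CC, CXC or CX3C by the spacing of the first cysteines in the protein. Each binds one or more G protein-coupled receptors, so that CXC ligands such as Cxcl1 draw neutrophils through Cxcr2 and CC ligands such as Ccl2 draw monocytes through Ccr2. Many are switched on by NF-kB in stromal cells, macrophages and epithelium during inflammation and tissue repair. The genes described here are the chemokine ligands of the array, chosen by symbol as every gene whose name begins with Ccl, Cxcl or Cx3cl followed by a number. Ccl19, Ccl21a, Ccl21b, Ccl21c, Ccl25, Cxcl12 and Cxcl10 were left out by name. The rule found 30 ligands among 30011 gene names, on 35 of 39429 gene probes, and 25 of them were among the 22070 genes bright enough to be tested.

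The ligands were measured in whole ureters taken from mouse embryos at E15.5 and kept in transwell culture for 6 days. The mutant ureters, called Fgfr1/2cDKO, carried Tbx18(cre/+) together with Fgfr1(fl/fl) and Fgfr2(fl/fl), so that Cre driven from the Tbx18 locus, which is active in the mesenchyme around the ureter, removes both FGF receptors there. The control ureters carried Fgfr1(fl/?) and Fgfr2(fl/?), where the second allele of each receptor is not given, and their labels list no Cre. All samples were on the NMRI background. Two-colour arrays compared mutant with control RNA directly: array 1 had mutant RNA in Cy5 and both RNAs labelled male, and array 2 had mutant RNA in Cy3 and both labelled female. The replicate, its sex label and its dyes change together, and their effects cannot be told apart. Because only the mutants are listed with the Tbx18 Cre allele, an effect of carrying that allele and an effect of the receptor deletion cannot be told apart either. The number of embryos per RNA sample and whether replicates came from separate litters are not given in the labels, so p-values measure only the spread between these 2 arrays, which may be technical. In RNA from a whole organ, fewer cells of a type and less RNA per cell cannot be told apart.

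Values are log2 ratios of mutant over control, and signals are normalised fluorescence in arbitrary units, which may be compared between samples for one probe but not between probes. Of the 22070 genes, 836 passed limma's test at an adjusted p below 0.05, with 389 higher and 447 lower in the mutant. The share of spots well above background was between 70.4% and 78.3% in the 4 channels. The ureter markers were present: all 10 urothelial and all 8 smooth muscle genes of the marker lists were bright enough to test, with median log2 ratios of 0.45 and -0.01. The median over all genes was -0.02, at -0.03 on array 1 and -0.0027 on array 2.

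The DNA just before the start of the gene is shown for the called ligands with a promoter sequence, and for Cxcl3. The letters GGANTTTCC, those of an NF-kB site, were found there in neighbouring neutrophil-attracting ligands. The stretches are the 150 bases before the start, on the gene's own strand, from RefSeq on GRCm38.p6. They lie at chr5:90891095-90891244 for Cxcl1, chr5:90903749-90903898 for Cxcl2 and chr5:90785951-90786100 for Cxcl3, all on the plus strand, and at chr11:83578637-83578786 on the minus strand for Ccl9. Capitals mark a match to GGANTTTCC in the Cxcl genes and to TGANTCA in Ccl9. TGANTCA holds the letters of an AP-1 site with any base allowed in the middle, which is A in Ccl9.
Cxcl1: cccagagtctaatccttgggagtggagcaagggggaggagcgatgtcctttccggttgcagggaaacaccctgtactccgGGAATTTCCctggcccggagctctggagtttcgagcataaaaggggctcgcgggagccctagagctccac
Cxcl2: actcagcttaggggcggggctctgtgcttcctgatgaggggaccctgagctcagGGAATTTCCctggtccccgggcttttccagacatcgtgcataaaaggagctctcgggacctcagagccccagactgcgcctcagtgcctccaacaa
Cxcl3: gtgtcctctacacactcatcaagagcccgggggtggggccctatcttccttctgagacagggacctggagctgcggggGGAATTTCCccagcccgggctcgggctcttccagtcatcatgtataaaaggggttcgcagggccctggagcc
Ccl9: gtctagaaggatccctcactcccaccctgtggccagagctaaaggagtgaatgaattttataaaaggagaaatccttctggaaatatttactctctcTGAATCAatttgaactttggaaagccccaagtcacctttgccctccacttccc

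The match reads GGAATTTCC in Cxcl1, Cxcl2 and Cxcl3, and begins at base -70, -96 and -72. Both strands were searched in windows from 250 bases before to 50 after the start, and a match on both strands was counted once. GGANTTTCC was in 412 of 32851 windows of all genes (1.25%), and in 3 of the 18 windows of the 16 ligand genes that have one. Those 3 belong to the neighbouring genes Cxcl1, Cxcl2 and Cxcl3, so the matches may not be independent. TGANTCA was in 7.81% of all windows and in 4 of the 18 ligand windows. Cxcl1, Cxcl2 and Ccl9 are shown because they were called lower in the mutant. Cxcl5 and Ccl11, also called lower, had no window and were not searched. Cxcl3 was not called and was added after its match was seen. A match is a description of the letters and not of a bound site.

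Taken over the family, the ligands lay low in the mutant ureters. Of the 25 tested ligands, 5 were called lower and 0 higher, where 3.79% of all genes tested were called, 2.03% lower and 1.76% higher. An unadjusted p below 0.05 with a lower level was found for 15 ligands (60% of the 25, against 11.4% of all genes), and for 0 with a higher level. The log2 ratio was below 0 on both arrays for 17 ligands (68%, against 36% of all genes), above 0 on both for 4 (16%, against 30.5%) and of opposite sign for 4. A mean of -0.5 or below with both arrays lower was found for 11 ligands, against 2.31% of all genes. The median log2 ratio of the 25 was -0.36, against -0.02 for all genes, and single ligands ranged from -0.98 to 0.19. The ligands were chosen with earlier results of these arrays known, so these shares are descriptions.

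The 5 calls depend on how the values were made, and their adjusted p-values all lay between 0.0331 and 0.0497. Of 20 alternatives with a test, 7 called 0 ligands and 13 called at least 1. Cxcl2 was called in 13 of the 20, Cxcl1 in 11, and Cxcl5, Ccl9 and Ccl11 in 9 each. Each of these counts includes the alternative with no normalization, where 14251 of 22070 genes were called lower. Each also includes the looser threshold of 0.10, where 1907 genes were called. The choice of spots that guide the loess curve alone moved the count: with the spots of 1 filler probe weighted, 2 ligands were called (Cxcl1 and Cxcl2), whether or not outlier spots were weighted too. With outlier spots weighted and the filler probe left out, 6 were called. The weighting reported here was kept after the counts under all 4 weightings had been seen. limma estimates how much genes vary from all genes together, and here it had only 1 degree of freedom per gene. When that estimate was made without limma's floor on very small variances, 0 ligands and 91 of all genes were called, and the 5 ligands had adjusted p-values from 0.0718 to 0.0891. The mean ratio of each of the 5 was below 0 in all 20 alternatives, and the ligand median was below 0 in all 18 alternatives that give one. Many of these alternatives change only the test, the threshold or the filter and leave the ratio of a called ligand as it is. With no normalization, the median of all genes was itself -0.65. These counts of signs are therefore not independent support for a fall.

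**Figure D1:**
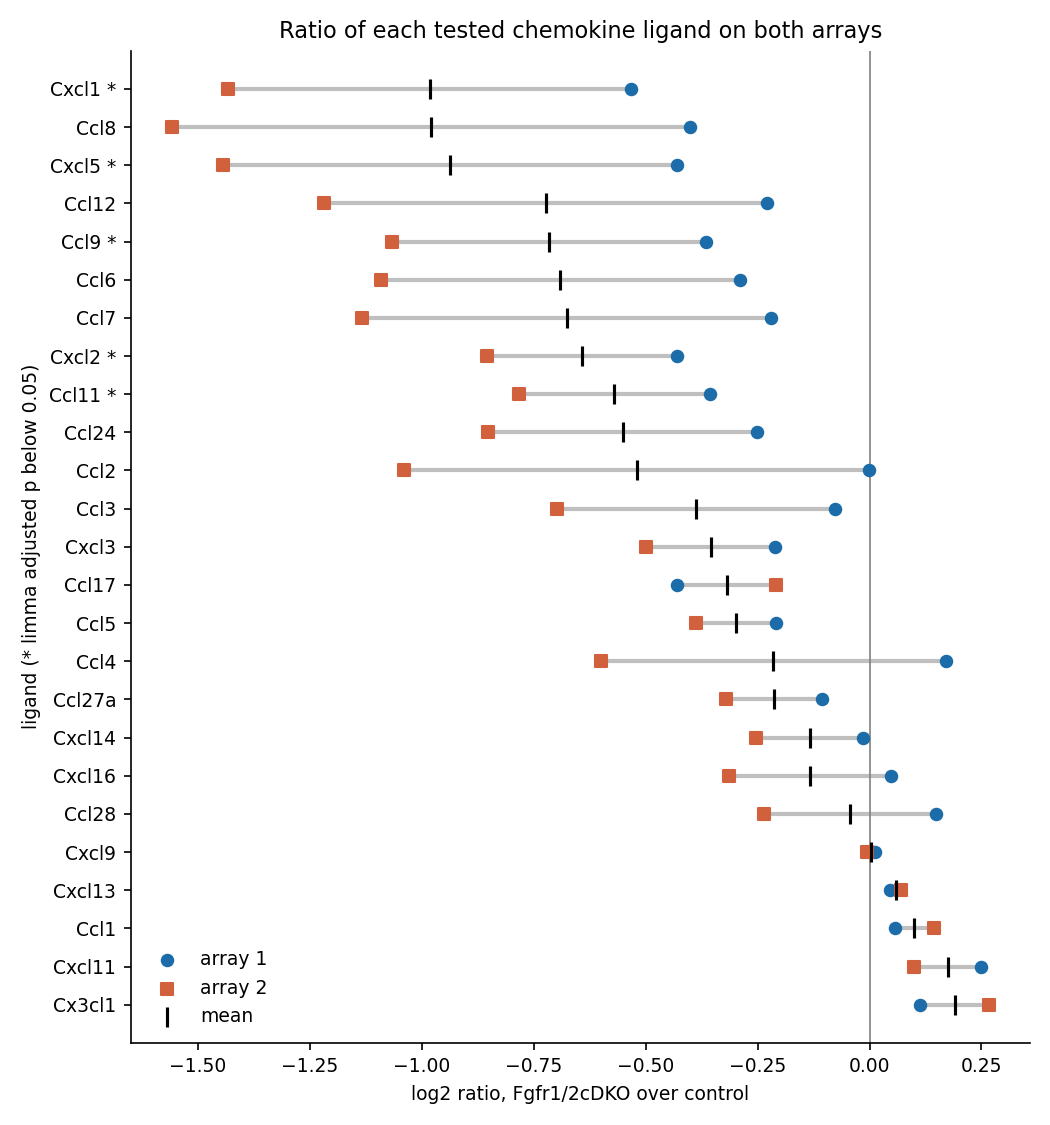
Log2 ratio of Fgfr1/2cDKO over control for each of the 25 tested chemokine ligands on array 1 (circles) and array 2 (squares), with the mean as a bar and the ligands ordered by it; asterisks mark limma adjusted p below 0.05. The means run from -0.98 for Cxcl1 to 0.19 for Cx3cl1, and array 2 gave the lower ratio for 21 of the 25.

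The array labelled female gave the larger differences. The ratio was lower on array 2 than on array 1 for 21 of 25 ligands (84%), against 45.3% of all genes. The median of the ligands was -0.21 on array 1 and -0.60 on array 2. Both medians lay below those of all genes on the same array, and the size of the difference therefore rests more on array 2.

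**Figure D2:**
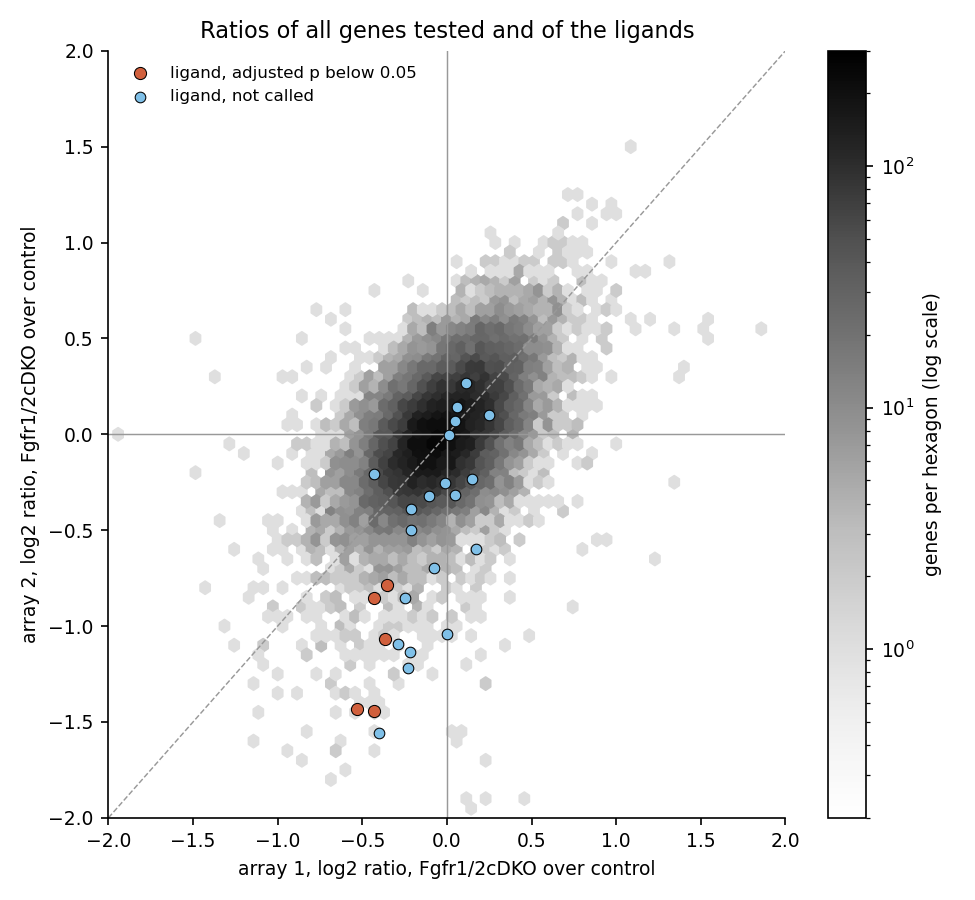
Log2 ratio of Fgfr1/2cDKO over control on array 1 (x axis) against array 2 (y axis). Grey hexagons count all genes tested, with 32 genes outside the axes, and points are the 25 ligands; the 5 called ligands and most others lie at the lower left, below the dashed line of equal ratios.

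The neutrophil-attracting CXC ligands, which act through Cxcr2, held 3 of the 5 calls. Cxcl1, Cxcl2 and Cxcl5 fell in the mutant, Cxcl3 did not pass the test, and all 4 tested members were lower on both arrays, with a median log2 ratio of -0.79. Cxcl1, the mouse counterpart of the human GRO chemokines, had signals of 369 and 299 in mutant RNA on arrays 1 and 2, against 533 and 807 in control RNA. Both mutant signals lay below both control signals. The share of all genes with such a separation was not counted, so here and below it only describes the signals. The test used the ratio within each array. The log2 ratios were -0.53 and -1.43, a mean of -0.98 ± 0.64 (SD, n = 2; limma adjusted p = 0.0331), so that mutant RNA held 69.2% of the control level on array 1 and 37.1% on array 2.

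Cxcl5, made largely by epithelial cells in many organs, had signals of 386 and 264 in mutant RNA, against 520 and 717 in control RNA. The genotypes did not overlap, and the log2 ratios were -0.43 and -1.44 (mean -0.94 ± 0.72, SD, n = 2; limma adjusted p = 0.0463). Cxcl2 had signals of 198 and 205 in mutant RNA, against 267 and 370 in control RNA. Its signals in the mutant were close to each other, and those in control RNA lay further apart. The ratios were -0.43 and -0.85 (mean -0.64 ± 0.30, SD, n = 2; limma adjusted p = 0.0378). Cxcl3 had signals of 181 and 200 in mutant RNA, against 210 and 283 in control RNA, with ratios of -0.21 and -0.50 and an adjusted p of 0.125 by limma. Its mean, -0.36, was the smallest of the 4.

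Cxcl15, known as lungkine, was too dim to test. Its probe was well above background in mutant RNA on array 2 only and in control RNA on array 1 only, which is the Cy3 channel on both arrays. The probes of this group, with that of Cxcl15, fell within chr5:91190490-91334593 on mm9, the build of the array files. Only ligands found by the rule were placed, so other genes may lie in this stretch. No 2 probes of different ligands in the whole family shared an exact run of more than 10 bases on the same strand, over 589 pairs.

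**Figure D3:**
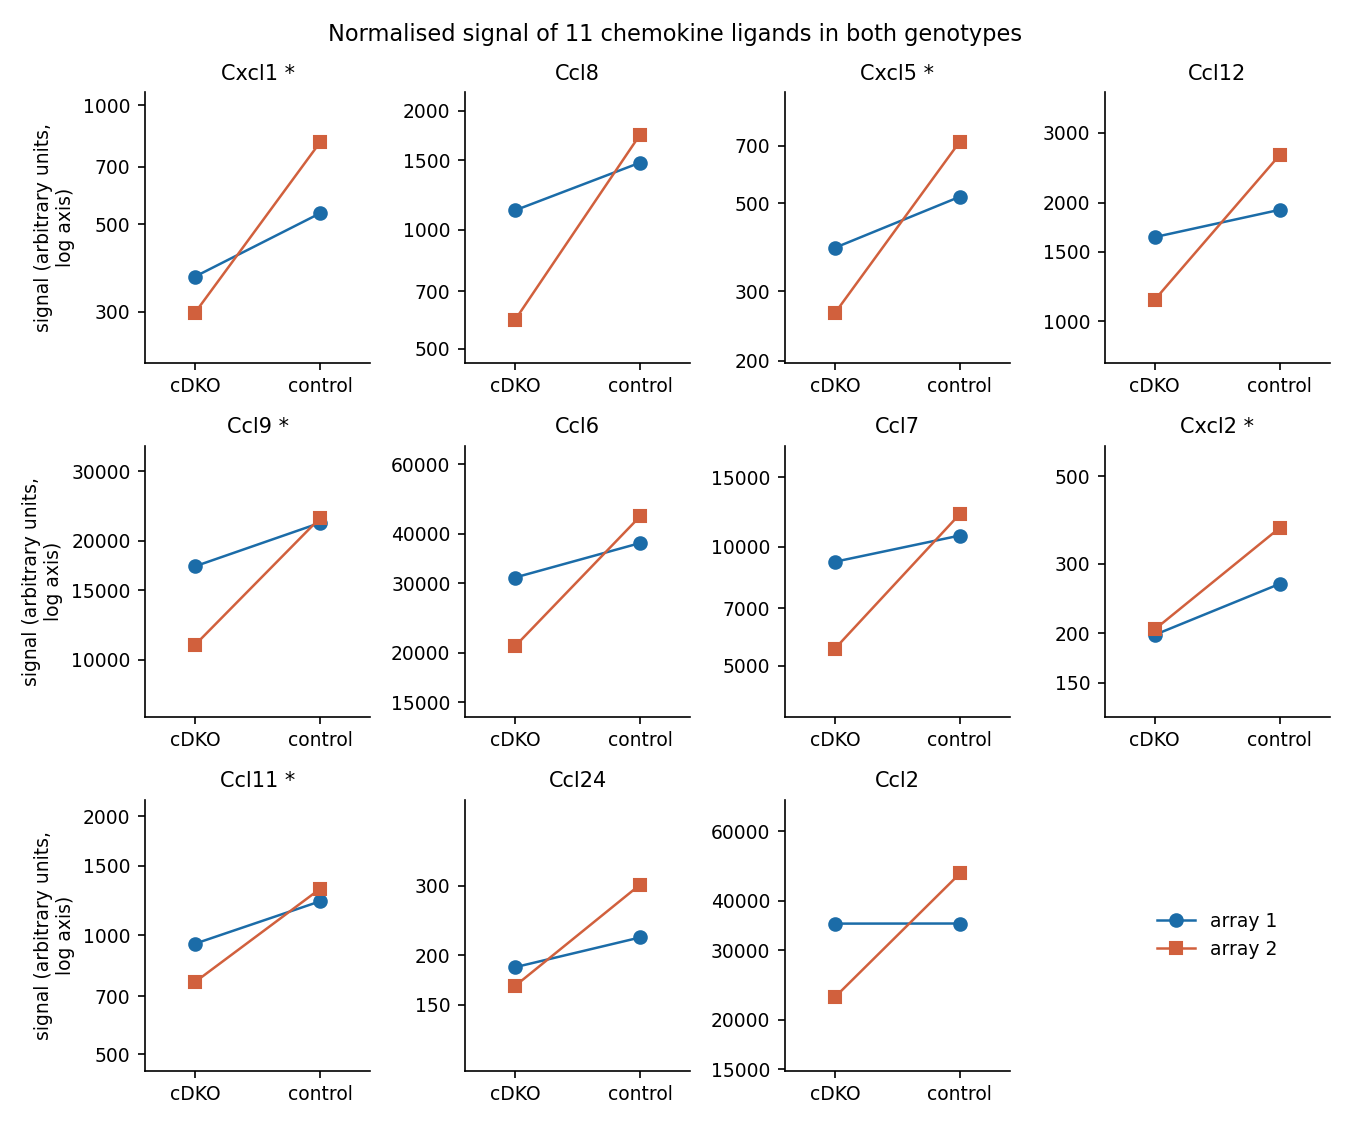
Normalised signal (arbitrary units, log axis, a separate scale in each panel) in Fgfr1/2cDKO (left) and control (right) RNA for the 11 ligands that were called (asterisk) or whose mean log2 ratio was at least 0.5 in size and of one sign on both arrays. Lines join the 2 channels of an array; every line climbs towards control except that of Ccl2 on array 1, which is level.

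The monocyte chemoattractant group, Ccl2, Ccl7, Ccl8 and Ccl12, held 0 calls, and its 4 members had mean log2 ratios from -0.98 to -0.52. Each had an unadjusted p below 0.05. Ccl8 had signals of 1121 and 592 in mutant RNA, against 1480 and 1742 in control RNA. The genotypes did not overlap, but the arrays differed widely, with ratios of -0.40 and -1.56 (mean -0.98 ± 0.82, SD, n = 2), and limma's adjusted p of 0.0523 missed the threshold. It passed in 9 of the 20 alternatives, as many as the called ligands Cxcl5, Ccl9 and Ccl11.

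Ccl12 had signals of 1635 and 1135 in mutant RNA, against 1917 and 2639 in control RNA (mean -0.72 ± 0.70, SD, n = 2; limma adjusted p = 0.0837). Ccl7 had signals of 9174 and 5528 in mutant RNA, against 10690 and 12120 in control RNA (mean -0.68 ± 0.65, SD, n = 2; limma adjusted p = 0.0855). In both genes the genotypes did not overlap, and the array 2 difference was several times that of array 1. Ccl2, the main attractant of Ccr2-bearing monocytes, was level on array 1, at 35000 in mutant and 35020 in control RNA. On array 2 it had 22800 in mutant and 46870 in control RNA, a log2 ratio of -1.04, and its mean of -0.52 ± 0.73 (SD, n = 2) had an adjusted p of 0.188 by limma.

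Of the eotaxins, which attract eosinophils through Ccr3, Ccl11 fell. It had signals of 952 and 761 in mutant RNA, against 1218 and 1310 in control RNA. The genotypes did not overlap, and the ratios were -0.36 and -0.78 (mean -0.57 ± 0.30, SD, n = 2; limma adjusted p = 0.0497). Ccl24 had signals of 186 and 167 in mutant RNA, against 222 and 302 in control RNA, with a mean of -0.55 ± 0.42 (SD, n = 2) and an adjusted p of 0.0784 by limma. Both signals of the mutant were again the lower. Ccl26 was not well above background in any channel. The receptor Ccr3 was above background in control RNA on 1 array and in mutant RNA on 0.

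Among the macrophage inflammatory CC ligands, Ccl9 fell. Ccl9, a ligand of Ccr1 that macrophages and other myeloid cells make, had signals of 17240 and 10910 in mutant RNA, against 22200 and 22850 in control RNA. The control signals nearly coincided and the mutant signals lay apart, with ratios of -0.36 and -1.07 (mean -0.72 ± 0.50, SD, n = 2; limma adjusted p = 0.0491). Its neighbour Ccl6 had signals of 31000 and 20770 in mutant RNA, against 37890 and 44260 in control RNA. Its ratios resembled those of Ccl9 in sign and size, at -0.29 and -1.09 (mean -0.69 ± 0.57, SD, n = 2; limma adjusted p = 0.0660), without passing the test.

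Ccl3, Ccl4 and Ccl5, which attract macrophages and T cells, were not called. Ccl3 had log2 ratios of -0.08 and -0.70 and Ccl5 had -0.21 and -0.39. Ccl4 had 0.17 on array 1 and -0.60 on array 2, so the arrays disagreed in sign. On mm9 the probes of these 5 genes lay within chr11:83339296-83478111, with a median log2 ratio of -0.39. Those of Ccl2, Ccl7, Ccl11, Ccl12, Ccl8 and Ccl1 lay within chr11:81850650-81990510, with a median of -0.62, and Ccl1 was the only member there with a mean above 0.

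The other ligands gave small ratios or none. Ccl17, a Ccr4 ligand, had ratios of -0.43 and -0.21, with the larger difference on array 1. Its limma adjusted p was 0.145. Ccl1, a Ccr8 ligand, had 0.06 and 0.14 on its tested probe, with dim signals from 112.6 to 124.4. Its second probe was not above background in any channel. Ccl22 was not above background in any channel.

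The epithelial ligands, which act through Ccr6 and Ccr10, were also not called. Ccl27a had ratios of -0.11 and -0.32 on its brightest probe, and means of -0.20 and -0.16 on the other two, the first of which overlaps the brightest. Ccl28 had 0.15 and -0.24, with dim signals from 122.7 to 178.5. Ccl20 was not above background in any channel.

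Cxcl9 and Cxcl11, ligands of Cxcr3 that interferon gamma induces, were not called. Cxcl9 had log2 ratios of 0.01 and -0.01 (limma adjusted p = 0.990), with dim signals from 128.2 to 135.3. The background offset of 50 draws the ratios of such dim probes nearer to 0. Its second probe, above background only in control RNA on array 1, gave -0.37 and -0.21 and was not tested. Cxcl11 had signals of 81560 and 77810 in mutant RNA, against 68640 and 72590 in control RNA, with ratios of 0.25 and 0.10 (limma adjusted p = 0.373). Its second probe gave -0.17 and 0.20, so the 2 probes disagreed in sign on array 1. The most widely shared 30 bases of the brighter and of the second Cxcl11 probe are shown next, with the 15 bases that most promoter windows hold in capitals.
Cxcl11 brighter probe: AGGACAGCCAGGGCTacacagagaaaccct
Cxcl11 second probe: agcacttgaaAGGCAGAGGCAGGAGgatct

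These stretches are given because they limit what the Cxcl11 signal can be taken for. An exact run of 15 bases of the brighter probe occurred in 65 promoter windows of other genes and in 22 array probes of other names, and of the second probe in 18 windows and 3 probes. The 33 probes of the other ligands shared such runs with 0 to 6 windows, with a median of 1. With runs of 20 bases, tried first, the brighter probe shared with 22 windows and 7 probes and the second with 0 of either; the length of 15 was chosen after that was seen. Whether RNA of other genes added to the Cxcl11 signal was not tested.

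Cxcl13, which draws B cells through Cxcr5, had ratios of 0.05 and 0.07. Cxcl14 had -0.01 and -0.25, and Cxcl17 was not above background in either genotype. The 2 ligands that are made as membrane proteins and shed by proteases were not called: Cx3cl1 had 0.11 and 0.27, the highest mean of the family at 0.19 ± 0.11 (SD, n = 2; limma adjusted p = 0.335), and Cxcl16 had 0.05 and -0.31. Ppbp, a platelet CXC ligand whose symbol the rule does not match, fell, at -0.65 ± 0.31 on the log2 scale (SD, n = 2; adjusted p = 0.0378 by limma). Pf4, the other such ligand tested, had 0.38 and -0.74.

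Chemokine receptors were measured on the same arrays, and the list includes some whose ligands are not among those described here. Of 20 chemokine receptor genes, 13 were tested, with 1 lower, 0 higher and a median log2 ratio of -0.09. Among all genes tested, 2.03% were called lower and 1.76% higher. Cxcr4, the receptor for Cxcl12, which was left out by name, fell by 0.54 ± 0.22 on the log2 scale (SD, n = 2; limma adjusted p = 0.0457). Ccr2, the receptor of the monocyte chemoattractants, had a positive ratio on both arrays, 0.33 and 0.63, with an adjusted p of 0.0600 by limma. Cx3cr1, the receptor of Cx3cl1, had a mean of 0.28 and Ccrl2 of -0.26. Cxcr2 was above background in control RNA on 1 array and in mutant RNA on 0, and Ccr1, Cxcr1, Cxcr5 and Xcr1 in no channel.

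Lists of genes that act upstream of or beside inflammatory chemokines held 1 or 2 calls each, to be read beside the 3.79% of all genes that were called. Of 26 cytokine and NF-kB response genes, 23 were tested, with 1 lower, 0 higher and a median of -0.09. Il6, a cytokine induced with Cxcl1 in stromal cells, had signals of 560 and 435 in mutant RNA, against 766 and 1003 in control RNA. It fell by 0.83 ± 0.53 on the log2 scale (SD, n = 2; limma adjusted p = 0.0386), with the array 2 difference again the larger. Il33 had a mean of -0.50, Birc3 of -0.44 and the NF-kB subunit Rela of 0.46, none of them called. Il1a, Il17a and Csf3 were not above background in any channel.

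Of the interferon gamma response genes, 15 of 16 were tested, with 1 lower, 0 higher and a median of -0.23. Igtp, an interferon-induced GTPase, fell by 0.68 ± 0.42 (log2, SD, n = 2; limma adjusted p = 0.0448). Psmb8 had a mean of -0.43, Ciita of -0.50 and Gbp3 of -0.33, not called. Of the type 2 response genes, which act beside Ccl11 and Ccl17, 6 of 10 were tested and 2 were lower: Mrc1, a macrophage lectin, at -0.79 and the matrix protein Postn at -0.57. Arg1 had a mean of -0.44 and Il4ra of -0.23. Il4 and Il13 were not above background in any channel. Of 11 proteases that cut or shed chemokines, 10 were tested and 1 was lower, Mmp9 at -0.62, while Mmp12 (-0.59), Ctsk (-0.51) and Adam17 (0.26) were not called.

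Macrophages, endothelium and fat can make chemokines, and the marker lists of all 3 had negative medians. Their calls are to be read beside the 2.03% of all genes tested that were called lower and the 1.76% called higher. Of 17 macrophage markers, 15 were tested and 4 were lower: Mrc1, Fcer1g (-0.62), Cd14 (-0.56) and C1qa (-0.59). The median log2 ratio of the 15 was -0.39, at -0.15 on array 1 and -0.67 on array 2. The summed signal of the tested macrophage markers, where bright probes weigh most, was 128700 in mutant and 156200 in control RNA on array 1. On array 2 it was 83680 in mutant and 124300 in control RNA. Timd4 was above background in no channel. Lyve1, one of the 11 not called, had positive ratios on both arrays, 0.16 and 0.18. A further 4, Adgre1, Lyz2, Folr2 and Mertk, had positive ratios on array 1 and negative ratios on array 2. The remaining 10 were lower on both arrays. Of 10 endothelial markers, all were tested and 7 were lower, with a median of -0.55, at -0.56 on array 1 and -0.49 on array 2. Of 8 adipocyte markers, 7 were tested and 6 were lower, with a median of -1.90. Pparg, the seventh, had a mean of 0.20, and Lep was above background in no channel.

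Markers of other blood cells differed in how many could be tested. Calls in this paragraph stand beside the same shares of all genes, 2.03% lower and 1.76% higher. Of 10 neutrophil markers, 6 were tested and 1 was lower, Camp at -0.89, with a median of -0.09. S100a9, Ngp and Retnlg were above background in no channel. The summed signal of the tested neutrophil markers, nearly all of it from Csf3r, was 122400 in mutant and 113100 in control RNA on array 1. On array 2 it was 116800 in mutant and 121300 in control RNA. Of 5 monocyte markers, 2 were tested: Plac8 was lower, at -0.56, and Ccr2 is given above. Of 8 mast cell markers, 4 were tested and 2 were lower (Cpa3 and Mcpt4), with a median of -0.37. Dendritic cell markers had 5 of 8 tested and 0 called, and eosinophil markers 1 of 4 tested and 0 called. T cell markers had 4 of 7 and B cell markers 3 of 4 tested, with 0 called. Of 10 urothelial markers, 4 were higher, with a median of 0.45, and 0 of 8 smooth muscle markers were called. Krt5, not called, was the 1 urothelial marker lower on both arrays, at -0.25 and -0.68. Of 8 fibroblast markers, 2 were lower and 0 higher, with a median of -0.30 and a range from -0.96 to 0.58. Of 8 markers of neurons and Schwann cells, 4 were lower and 0 higher, with a median of -0.36. Of 5 kidney tubule markers, 4 were tested and 3 were higher, with a median of 1.03, and of 5 mesothelial markers 2 were higher, with a median of 0.22. Upk3b is on both the urothelial and the mesothelial list and is counted among the higher genes of each. The part of these cell types in the ligand values was not tested.

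**Figure D4:**
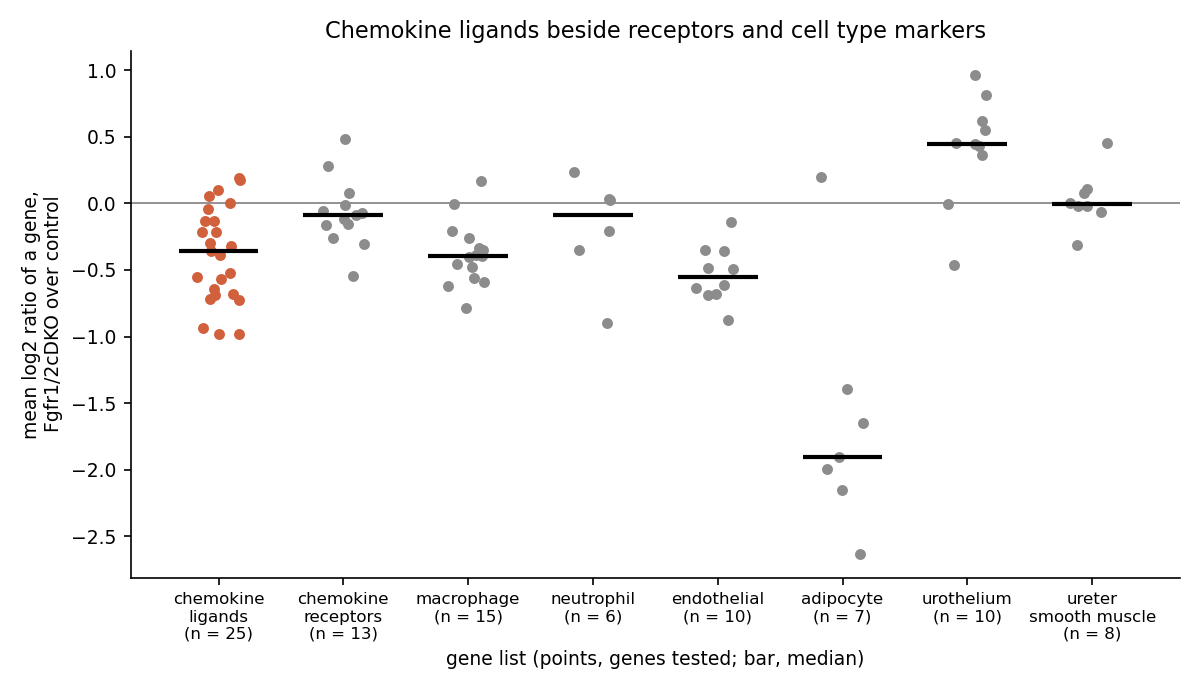
Mean log2 ratio of Fgfr1/2cDKO over control for each tested gene (points) and the median (bar) of the chemokine ligands, chemokine receptors and 6 cell type marker lists. The median was -0.36 for the ligands and -0.39 for macrophage markers, against -0.09 for the receptors and -0.01 for smooth muscle.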

How the data were processed

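Per the labels, 150 ng of total RNA of each genotype was labelled, with opposite dyes on the 2 arrays. The deposited scanner files give each spot's intensity in both colours and a log10 ratio of red over green. Per the submitters' processing notes, the software was Agilent Feature Extraction 10.7.3.1. The authors also deposited a score for every probe, namely a fold change with a sign, and how it was made is not stated. Set against the scanner ratios turned to mutant over control, it correlated across probes at r = 0.99 on array 1 and r = 0.97 on array 2. Its median was 1 on both arrays, 8097 and 9100 probes stood at exactly 1, and whether it was centred is unknown. The coordinates of probes refer to mm9, as the file headers say.

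Ratios were computed in R 4.3.3 with limma 3.58.1. The background step was normexp (offset 50), and that offset draws the ratios of dim spots nearer to 0. Loess was fitted within each array, with weight 0 for control spots, outlier spots (3.17% and 3.65% of gene spots) and a filler probe of 19304 spots, and 0 gene spots were saturated. The handling of the filler probe was not part of the planned design. It was settled after the counts under all 4 weightings were seen, because it gave the same counts as an earlier processing of these data. Signals are from the same fit after Aquantile scaling. The 4 spots of a probe were averaged without outliers. A probe was tested if more than 50% of its unflagged spots stood well above background for 1 genotype or more on each of the 2 arrays, the same genotype on both (28915 probes). Other forms of that rule gave from 28904 to 29598 probes, and this form and the naming of genes were also kept for their match to the earlier processing. A gene took its brightest tested probe. Of 39429 probes, 28328 were named by accession and 3400 by symbol through RefSeq tables, and 7701 kept the name in the file.

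limma's lmFit and eBayes tested the mean ratio against 0, two-sided, with Benjamini-Hochberg adjustment over all genes tested. Each gene had 1 residual degree of freedom, and eBayes estimated 7.45 prior degrees of freedom. Tested on simulated data, the fit recovered large changes but in most runs called more unchanged genes than its threshold allows. The prior estimated without limma's floor on small variances gave a smaller share of such calls, still above the threshold in some runs. On the arrays it came to 5.69 degrees of freedom, and it is an alternative chosen after seeing the data. The number of arrays limits the precision. Members, role groups and gene lists were chosen with earlier results of these data known. Every ligand is named, with full statistics where it was called or had a mean of at least 0.5 in size and 1 sign on both arrays. From other lists, called genes and the 4 with the smallest p are named, without the genes left out by name, and for marker lists the called genes of some.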

Additional observations from a re-analysis of the deposited data

Results flagged for a closer look

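The probe of Cxcl15 read 109.8 in mutant RNA on array 2, where it was well above background and control RNA was not, at 95.6. On array 1 the reverse held, with mutant RNA at 97.1 below and control RNA at 103 well above background. It was tested only in the alternative with no filter on dim probes, where it was not called.

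In 4 ligands the arrays labelled male and female had ratios of opposite sign. The log2 ratio of array 1 exceeded that of array 2 by 0.77 for Ccl4, 0.38 for Ccl28, 0.36 for Cxcl16 and 0.0168 for Cxcl9. None was called. The difference was not tested, since each sex label has 1 array, and sex label, dye orientation and replicate cannot be told apart. Of all genes tested, 7401 had opposite signs.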

How the results depend on the processing

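Against 5 ligands called lower, 9 were called with a normexp offset of 16 and 8 with an offset of 0, 10 with a variance trend, 10 at an adjusted p below 0.10 and 20 with no normalization. With no filter on dim probes 1 was called, and with robust variance 1 (Cxcl2 in both). With no background correction, the scanner software's processed signals, median centring, the authors' value table or an adjusted p below 0.01, 0 were called, as with the prior estimated without a variance floor. Unadjusted p below 0.05 was reached by 12 to 21 ligands. With filler spots weighted in the loess, with or without outlier spots, 2 were called. Ligands called higher numbered 0 in every alternative.

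Against 836 of all genes, calls numbered 3 with no background correction, 10 with processed signals, 0 with median centring (5584 at an unadjusted p below 0.05), 14259 with no normalization, 170 with the authors' table, 1471 with every probe on its own, 1415 with a variance trend, 91 without the variance floor, 1907 at 0.10 and 23 at 0.01. With filler and outlier spots weighted they numbered 585, with filler spots 706 and with outlier spots 884. With ratios left as red over green, 0 genes were called by limma and 77 had an unadjusted p below 0.05. The loess alternatives and the variance floor were chosen after seeing the data. The cause of these differences was not tested, except that fewer or more tests follow from the filters.

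The numbers 1 and 2 mark arrays, and each array holds both genotypes, so the ratio itself pairs them. Treating the 4 channels as separate samples, with no replicate block, gave 0 ligands and 3 genes called, and 12 ligands at an unadjusted p below 0.05.

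The ligand median ranged from -0.60 to -0.21 when either array was left out. It was -0.97 with no normalization, where the median of all genes was -0.65. Median centring put that median at -0.14. Relative to all genes, the ligand median lay between -0.45 and -0.25 in the alternatives, against -0.34 as reported. Receptors called ranged from 0 to 8.

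With no normalization the mean changed sign for Ccl1 (-0.29), Cx3cl1 (-0.52), Cxcl11 (-0.65), Cxcl13 (-0.47), Cxcl9 (-0.42), Ccr2 (-0.0547), Cx3cr1 (-0.42), Rela (-0.32) and Adam17 (-0.36). With median centring it did so for Ccl28 (0.0170), Cx3cl1 (-0.00742) and Cxcl11 (-0.14). Cxcl9 turned to -0.000128 with no background correction and -0.00569 with processed signals. None of these genes was called as reported. Dim probes limit Cxcl15, Ccl20, Ccl22, Ccl26 and Cxcl17, which have no tested ratio as reported.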
